A study of Mus musculus with 2 samples.

Results

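The genes described are Gnas, which encodes the stimulatory G protein alpha subunit (Gs-alpha), and the 6 genes of protein kinase A (PKA). These are the catalytic subunit genes Prkaca and Prkacb and the regulatory subunit genes Prkar1a, Prkar1b, Prkar2a and Prkar2b. They were chosen by symbol, matched to gene identifiers through the gene name in the deposited transcript tables, and are 7 of 55536 annotated genes. All 7 were found, and all were at 1 TPM (a level scaled for transcript length and library size, so that the transcripts of a library share a fixed sum) or more in both libraries. Below, detected means this level in both libraries. It was reached by 14173 of the 55536 annotated genes and by 12371 of 22028 protein-coding genes.

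Total RNA was sequenced from adrenal glands of adult male mice labelled 5xFAD X Cast. The mice were 8 to 10 months old. The 5xFAD line carries transgenes for human amyloid precursor protein and presenilin, driven by a neuronal promoter, and serves as a model of amyloid plaques in brain. CAST mice descend from wild-caught animals. The series held 2 libraries of this 1 group, biological replicates 1 and 2, with no other genotype, tissue or treatment analysed here. The labels give each library a biosample of its own and the same donor entry, so the spread between them may not be that between animals. Counting used the mm10 reference for reads of CAST alleles too, and how this touched these 7 genes was not tested. No difference between groups could be tested, and the smallest two-sided p that a sign-flip could reach is 0.5.

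A hormone receptor coupled to Gs, such as the corticotropin receptor of the adrenal cortex, makes Gs-alpha exchange its nucleotide and stimulate adenylyl cyclase, which forms cyclic AMP (cAMP). PKA rests as a complex of a regulatory subunit dimer with a pair of catalytic subunits. Binding of cAMP to the regulatory subunits frees the catalytic activity. In the cortex this pathway drives steroid synthesis after corticotropin, and in chromaffin cells of the medulla PKA phosphorylates tyrosine hydroxylase. In humans, mutations of GNAS, PRKACA and PRKAR1A are known from cortisol-producing adrenal disease.

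Regulatory genes of type I and type II differ in the stretch that lies in the catalytic cleft of the resting complex. That stretch is shown for each gene. The lines give 51 coding bases of the GENCODE M21 transcript with the highest share in each gene, on GRCm38 (mm10). Capitals mark the inhibitory motif of 5 codons. Its first codons are a pair of arginine codons, and the codon before the last stands where PKA would phosphorylate a substrate.
Prkar1a-201: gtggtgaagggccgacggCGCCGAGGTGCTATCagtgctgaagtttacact
Prkar1b-201: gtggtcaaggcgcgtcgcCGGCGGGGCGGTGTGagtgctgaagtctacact
Prkar2a-201: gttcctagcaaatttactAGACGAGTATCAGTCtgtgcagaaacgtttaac
Prkar2b-202: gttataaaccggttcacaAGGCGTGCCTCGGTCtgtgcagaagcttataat
At that place Prkar1a has the alanine codon GCT (codon 99) and Prkar1b the glycine codon GGT (codon 99). Neither residue can be phosphorylated, which makes the type I site a pseudosubstrate. Prkar2a has the serine codon TCA (codon 97) and Prkar2b the serine codon TCG (codon 112), the autophosphorylation site of type II subunits. The Prkar1a stretch lies at chr11:109660089-109660139 on the plus strand and that of Prkar1b at chr5:139108514-139108564 on the minus strand. The Prkar2a stretch (chr9:108714278-108716882, plus strand) and the Prkar2b stretch (chr12:31993764-32038652, minus strand) each span an intron.

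Gnas was the most abundant of the 7 genes, and its level stood far above that of any kinase gene. Its level was 666 TPM in replicate 1 and 684 in replicate 2 (675 ± 12.8, SD, n = 2), from 30106 and 28276 expected counts. Among 22028 protein-coding genes it ranked 32nd in replicate 1 and 35th in replicate 2. Gnas was 5.28 ± 0.0756 times as high as the next gene, Prkar1a, and 1.73 ± 0.0252 times the sum of all 6 PKA genes, in TPM. In expected counts, not divided by length, these ratios were 2.84 ± 0.0714 and 1.01 ± 0.0291. The second quantifier, a deposited table made directly from the reads, gave 735 and 705 TPM for Gnas.

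The catalytic genes encode the kinase itself, and Prkaca was the higher of them. Prkaca (C-alpha) had 79.2 TPM in replicate 1 and 74.9 TPM in replicate 2, with 4920 and 4141 expected counts. Prkacb (C-beta) had 50.2 and 51.1 TPM, with 4544 and 4137 expected counts. The libraries of Prkaca did not overlap those of Prkacb, and Prkaca was 1.52 ± 0.0799 times as high in TPM. In expected counts, which are not divided by length, the ratio was 1.04 ± 0.0578. The leading transcript of Prkacb is 4347 bases long, that of Prkaca 2276 bases. The leading transcripts of the pair have coding sequences of 1053 bases each, and 845 of these (80.2%) were the same.

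Of the type I regulatory genes, Prkar1a was expressed several times higher than Prkar1b. Prkar1a (RI-alpha) had 127 and 128 TPM, from 10809 and 9797 expected counts, the highest level among the kinase genes. Prkar1b (RI-beta, known mainly from brain) had 17.8 and 15.96 TPM, from 1233 and 1000 expected counts. The ratio of Prkar1a to Prkar1b was 7.60 ± 0.615 in TPM and 4.92 ± 0.0887 in the second quantifier, which gave Prkar1b 22.5 and 22.1 TPM. The coding sequences of both genes are 1143 bases long, and 843 of these bases (73.8%) were the same.

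The type II genes were unequal too, with Prkar2b the high one. Prkar2b (RII-beta) had 106 TPM in replicate 1 and 111 TPM in replicate 2, from 7746 and 7306 expected counts. Prkar2a (RII-alpha) was the lowest of the 7 genes in TPM, with 9.72 and 10.9 TPM from 1300 and 1164 expected counts. The ratio of Prkar2b to Prkar2a was 10.6 ± 0.460 in TPM, 9.995 ± 0.377 in the second quantifier and 6.12 ± 0.225 in expected counts, where Prkar1b and not Prkar2a was the lowest gene. Each type therefore had 1 high and 1 low gene, and the high gene was the alpha form in type I and the beta form in type II.

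The order of the 7 levels was Gnas, Prkar1a, Prkar2b, Prkaca, Prkacb, Prkar1b and Prkar2a. For each of the neighbours in this order both libraries of the higher gene lay above both of the lower, in the gene table and in the second quantifier. The closest neighbours were Prkar1a and Prkar2b, whose mean levels differed 1.18-fold, and the kinase genes with the widest gap were Prkacb and Prkar1b, at 3.003-fold. Prkar1a ranked 340th and 343rd among protein-coding genes, and Prkar2a ranked 7159th and 6754th. The genes lie on separate chromosomes, Prkar1a at chr11:109649405-109669656, Prkaca at chr8:83972993-83996443 and Prkar2a at chr9:108689314-108750436 on the plus strand. Prkar2b lies at chr12:31958476-32061296, Prkacb at chr3:146729574-146812990 and Prkar1b at chr5:139017306-139150001 on the minus strand.

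**Figure D1:**
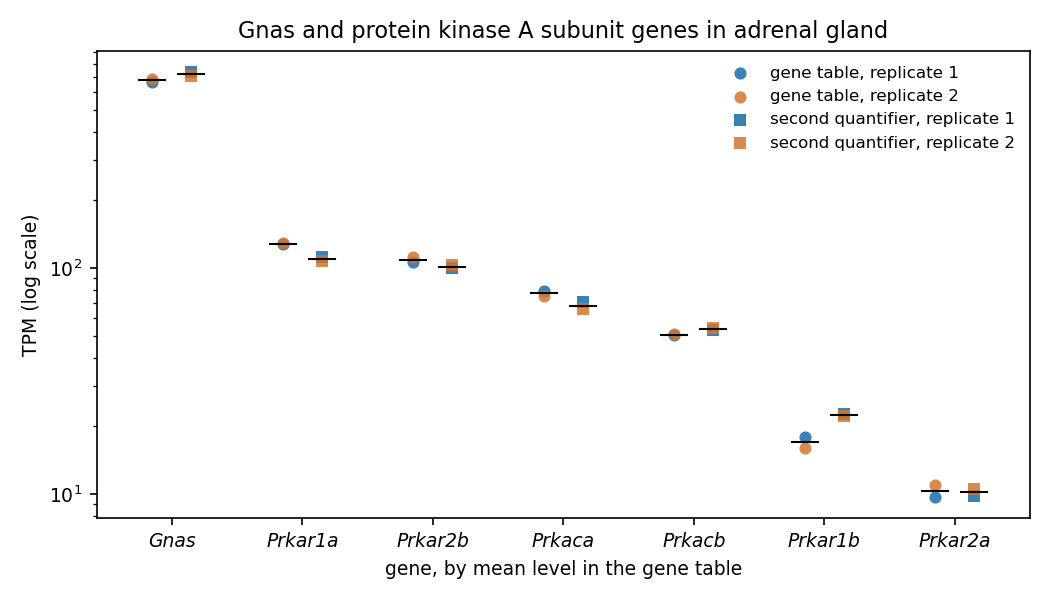
TPM of each gene on a log scale in the 2 libraries (blue, replicate 1; orange, replicate 2), from the gene table (circles) and the second quantifier (squares), with a line at each mean. Gnas stands at 666 and 684 TPM above all kinase genes, and Prkar1b and Prkar2a lie below 25 TPM in both libraries.

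Summed over genes, regulatory mRNA exceeded catalytic mRNA in both libraries. The 4 regulatory genes summed to 261 and 267 TPM in replicates 1 and 2, and the 2 catalytic genes to 129 and 126 TPM. The ratio was 2.01 and 2.12 (2.07 ± 0.0716, SD, n = 2). Within the regulatory sum, Prkar1a held 48.5 ± 0.534%, Prkar2b 41.2 ± 0.870%, Prkar1b 6.40 ± 0.588% and Prkar2a 3.91 ± 0.253%. Type I genes together held 55.7% and 54.1% of the regulatory TPM (mean 54.9%). Prkaca held 61.2% and 59.4% of the catalytic TPM (60.3 ± 1.26%), and 57.1% and 54.8% in the second quantifier. These are shares of mRNA in bulk tissue, and protein was not measured.

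**Figure D2:**
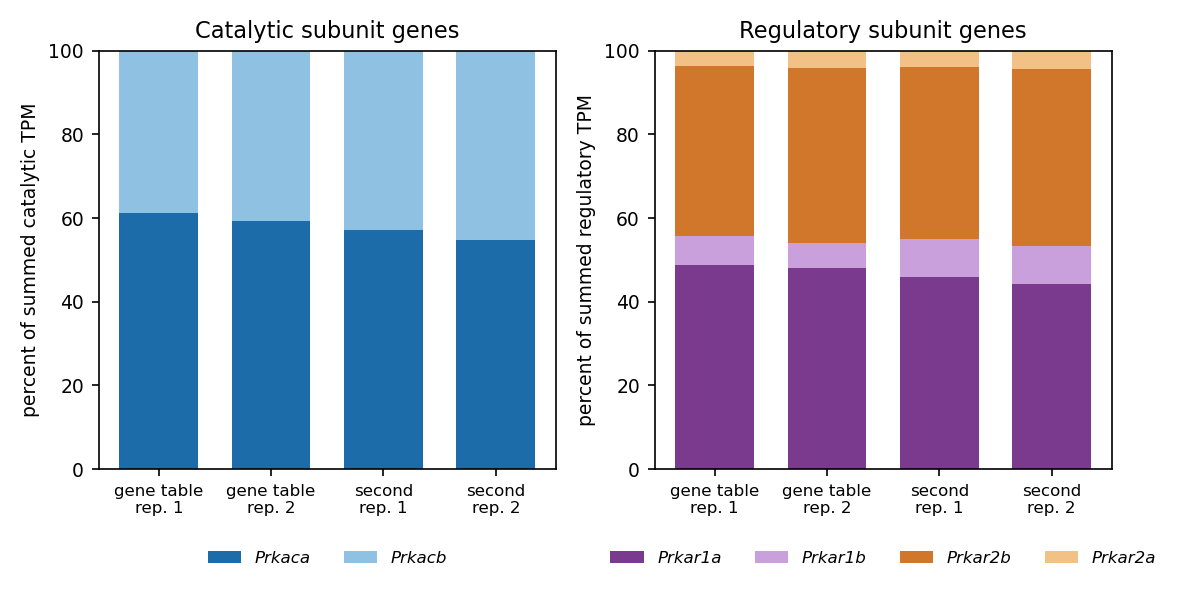
Percent of summed TPM held by each catalytic gene (left) and each regulatory gene (right), for each library and quantifier. Prkaca holds 54.8% to 61.2% of the catalytic sum, and Prkar1a with Prkar2b make up most of the regulatory sum in every bar.

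Gnas is an imprinted locus with alternative first exons, spliced to shared later exons. Gs-alpha starts at exon 1, XL-alpha-s and the neuroendocrine secretory protein Nesp at first exons upstream, and mostly noncoding transcripts at exon 1A. The gene spans chr2:174284320-174346744 on the plus strand, and 24 transcripts are annotated, 16 of them protein coding. Transcripts were grouped by where they start.

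Transcripts that start at the Gs-alpha first exon dominated Gnas. The 4 of them held 85.4% of Gnas TPM in replicate 1 and 87.3% in replicate 2, and 64.3% and 71.0% in the second quantifier. The 5 transcripts that start in the Nesp region held 6.28% and 7.07%, which is 41.8 and 48.4 TPM, and 28.3 and 34.7 TPM in the second quantifier. Nesp protein is known from chromaffin granules of the medulla. Of these 5, the 3 that start at the Nesp first exon had 25.2 and 30.7 TPM, and 26.1 and 30.7 TPM in the second quantifier, led by Gnas-211 at 23.5 and 29.2 TPM. The other 2 start within the next exon, and 1 of them, Gnas-214, was at 15.03 and 16.8 TPM and at 0 in both libraries of the second quantifier. The 7 transcripts from the XL first exon held 0.509% and 0.466%, or 3.39 and 3.19 TPM.

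The quantifiers differed most on transcripts that start in the exon 1A region. The 6 of them held 4.04% and 3.04% of Gnas TPM in the gene-table pipeline and 30.6% and 22.7% in the second quantifier. The gap lay in Gnas-218, a noncoding transcript of 607 bases, of which 498 also belong to Gnas-208 and 109 are its own first exon. Gnas-218 was at 14.4 and 4.74 TPM in the gene-table pipeline and at 209 and 136 TPM in the second quantifier. Leaving 20 transcripts under 5% aside, the rest of Gnas was Gnas-206, Gnas-207 and Gnas-208, which encode Gs-alpha.

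**Figure D3:**
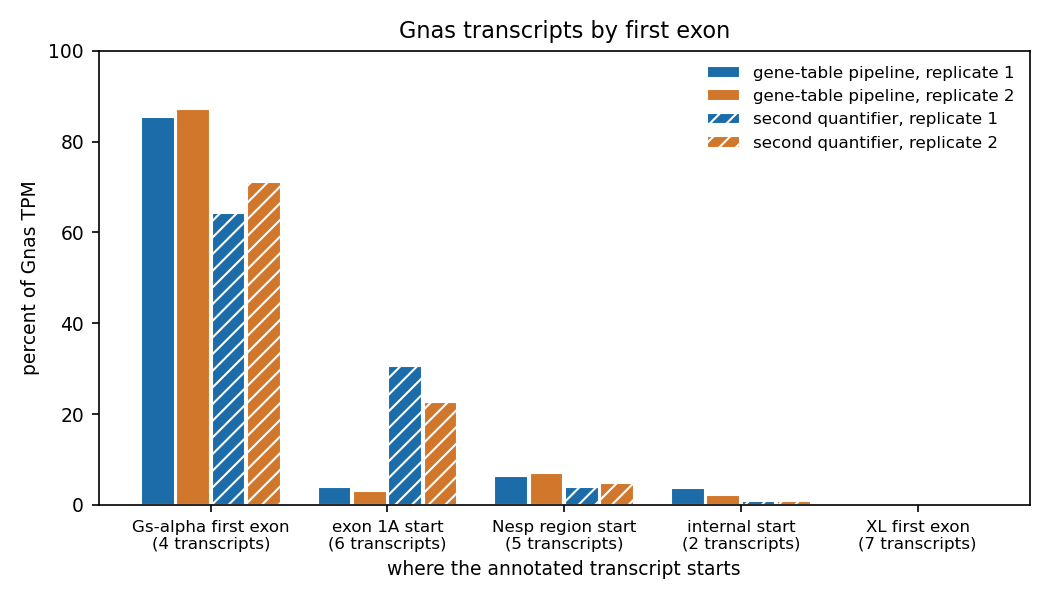
Percent of Gnas TPM by start of the annotated transcript, in each library (blue, replicate 1; orange, replicate 2) and quantifier (hatched, the second quantifier). The Gs-alpha first exon leads in all 4 cases, and the exon 1A group is the one that differs most between quantifiers, at 4.04% and 3.04% against 30.6% and 22.7%.

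The 3 Gs-alpha transcripts differ where exon 2 joins exon 4, so the joins are shown, from GENCODE M21 on GRCm38 (plus strand, between chr2:174334270 and chr2:174341667). Capitals mark bases that Gnas-206 lacks. In Gnas-208 these are the 45 bases of exon 3 (chr2:174336747-174336791), which separate the long from the short form of Gs-alpha, and in Gnas-207 they are 3 bases at the start of exon 4.
Gnas-208: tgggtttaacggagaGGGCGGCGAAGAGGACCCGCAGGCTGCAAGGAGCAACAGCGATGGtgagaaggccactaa
Gnas-207: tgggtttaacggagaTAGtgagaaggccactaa
Gnas-206: tgggtttaacggagatgagaaggccactaa
All insertions keep the reading frame, with coding lengths of 1182, 1140 and 1137 bases. Gnas-208 (long form) had 285 and 299 TPM, or 43.2 ± 0.711% of the gene, and 183 and 238 TPM in the second quantifier. Gnas-206 had 177 and 193 TPM, and 95.6 and 97.7 TPM in the second quantifier. Gnas-207 had 107 and 105 TPM, and 176 and 147 TPM in the second quantifier, so the order of Gnas-206 and Gnas-207 turned between quantifiers. Among the 4 full-length Gs-alpha coding transcripts, those with exon 3 held 50.5% in replicate 1 and 50.6% in replicate 2. The second quantifier gave them 41.1% and 50.2%, so the long and short forms were near equal in 3 of the 4 values.

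Antisense transcription at Gnas was low. Nespas, the antisense RNA at the Nesp promoter, had 0.650 and 0.710 TPM from 29 and 33 counts. The predicted gene Gm20721, on the opposite strand from the Gs-alpha first exon onwards, had 33 and 36 counts. The libraries were made with a directional kit, per the labels, and whether counting used strand is not given in the sources used here.

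The catalytic genes each have alternative first coding exons, and the residue after the start codon decides whether the protein can be myristoylated, which needs a glycine there. The first coding exons are shown for that reason, with the start codon and the codon after it in capitals; for Prkacb-201 these are the first 46 of 187 bases.
Prkaca-201: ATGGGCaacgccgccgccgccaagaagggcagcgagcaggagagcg
Prkaca-202: ATGGCTtccagctccaacgatg
Prkacb-202: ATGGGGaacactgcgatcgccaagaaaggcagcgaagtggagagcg
Prkacb-201: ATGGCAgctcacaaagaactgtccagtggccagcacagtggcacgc
Prkaca-201 (GGC) and Prkacb-202 (GGG) have a glycine codon after the start, and 36 of their 46 first-exon bases were the same. Prkaca-202 (GCT) and Prkacb-201 (GCA) have alanine codons. The Prkaca exons lie at chr8:83973187-83973232 and chr8:83977073-83977094 (plus strand). The Prkacb exons lie at chr3:146812638-146812683 and chr3:146781288-146781333 (minus strand).

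The transcripts that start with the glycine exon led both catalytic genes. Prkaca-201 was at 78.6 and 73.7 TPM, which is 99.2% and 98.5% of the gene, and 96.2% and 98.3% in the second quantifier. Prkaca-202, whose short first exon is known from sperm, was at 0.600 and 1.14 TPM. Prkacb-202 was at 30.8 and 30.9 TPM, or 60.9 ± 0.564% of the gene, and 47.9 ± 0.516% in the second quantifier.

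The rest of Prkacb was spread over short models and other first exons. Prkacb-208, a coding model of 493 bases of which 448 are shared with Prkacb-202, held 22.3 ± 1.82% and in the second quantifier 17.4 ± 3.65%. These shares are divided by length, and Prkacb-208 had 119 and 121 expected counts where Prkacb-202 had 3745 and 3362. In expected counts Prkacb-202 held 81.8% of the gene. Prkacb-205, a retained intron, held 4.31 ± 1.39% and 12.6 ± 0.387% in the second quantifier. Prkacb-207 was at 0.470 and 0 TPM, and at 3.74 and 8.31 TPM in the second quantifier. Prkacb-201 and the other transcripts under 5%, 4 in number, held 11.995 ± 0.797% together. Among the full-length coding transcripts alone Prkacb-202 held 89.2% and 86.8%, and 85.8% and 87.3% in the second quantifier.

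Among regulatory genes, the leading transcripts of Prkar1a and Prkar2b varied little between libraries in the gene-table pipeline. Prkar1a-201 held 77.9 ± 0.179% of Prkar1a and 72.1 ± 0.950% in the second quantifier. Prkar1a-203 held 10.2 ± 0.468% and has the same coding sequence with another first exon, so that 313 bases precede the coding sequence where Prkar1a-201 has 159. Prkar1a-202, a model with a coding sequence of 513 bases, held 9.37 ± 0.574%.

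Prkar2b was divided between transcripts of one coding sequence. Prkar2b-202 held 51.6 ± 0.277% and Prkar2b-201 held 40.7 ± 0.252%. Both encode the same 1248 bases, with 1916 bases after the coding sequence in Prkar2b-202 and 256 in Prkar2b-201. In the second quantifier they held 45.4 ± 2.30% and 45.2 ± 0.738%, which overlap within the spread of the libraries. There Prkar2b-202 led in replicate 1 (47.1% against 44.7%) and Prkar2b-201 in replicate 2 (45.7% against 43.8%). Prkar2b-203 held 7.75 ± 0.0247%.

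The transcripts of the low genes were less certain. Prkar2a-201 was at 9.23 and 9.15 TPM, or 89.5 ± 7.73% of Prkar2a, and 76.1 ± 5.79% in the second quantifier. Prkar2a-202, all of whose 599 bases also belong to Prkar2a-201, held 8.32 ± 9.14%, an SD larger than the mean. Prkar2a-206, whose 1143 bases all belong to Prkar2a-201 too, was at 0 TPM in both libraries and at 0.441 and 2.01 TPM in the second quantifier.

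Prkar1b was the gene whose transcripts the quantifiers divided most differently. Prkar1b-201 was at 16.6 and 14.03 TPM in the gene-table pipeline, or 90.6 ± 3.86% of the gene. In the second quantifier it was at 9.83 TPM in replicate 1 and 1.10 TPM in replicate 2, or 43.7% and 4.97%. Prkar1b-203, with the same coding sequence and another first exon, was at 0 TPM in both libraries, and at 0.365 and 6.18 TPM in the second quantifier. Prkar1b-202 held 5.01 ± 4.78%, and 21.4 ± 5.17% in the second quantifier. Prkar1b-204, Prkar1b-207, Prkar1b-208, Prkar1b-209 and Prkar1b-211 were named by the second quantifier alone, with means of 6.28% to 10.9%. The gene total of Prkar1b moved less, with means of 16.9 and 22.3 TPM in the gene table and the second quantifier.

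**Figure D4:**
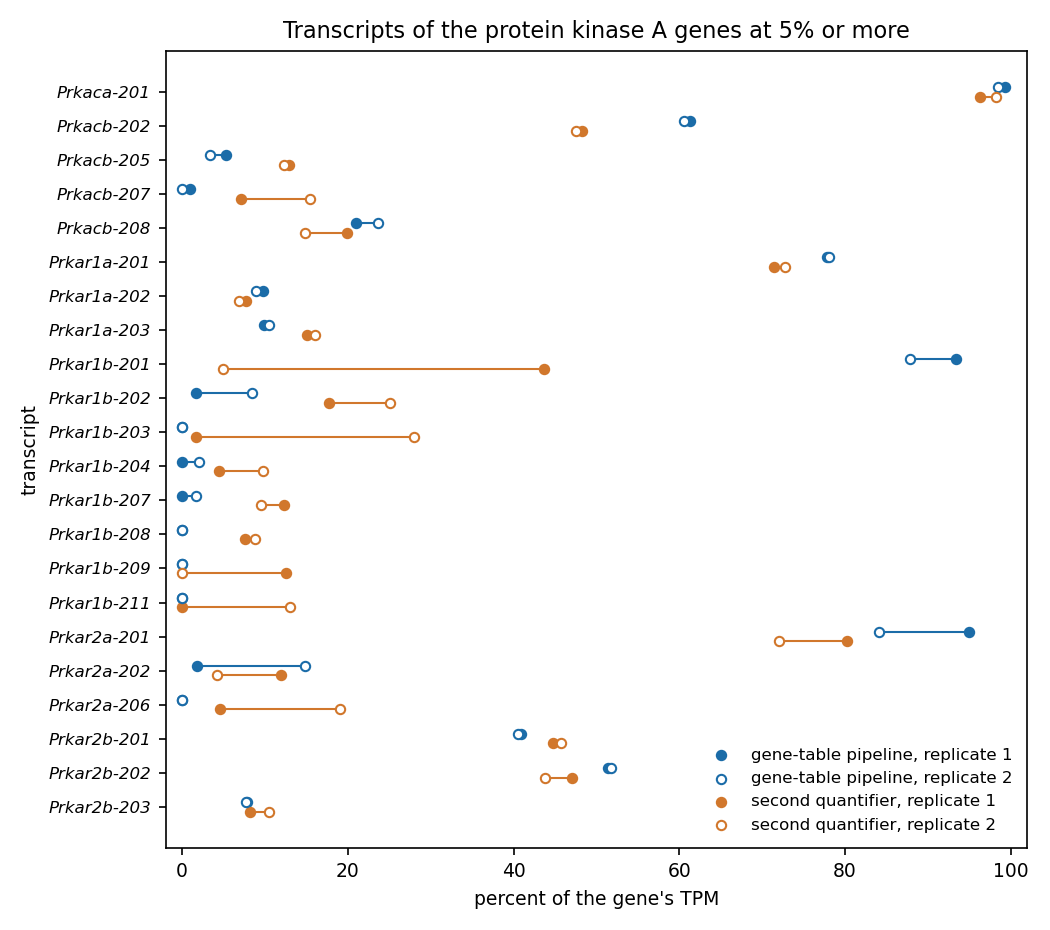
Percent of each PKA gene's TPM held by transcripts at 5% or more in either quantifier (mean of the libraries), for replicate 1 (filled) and replicate 2 (open), in the gene-table pipeline (blue) and the second quantifier (orange). Prkaca-201 lies above 96% in all 4 values, and Prkar1b-201 lies at 43.7% and 4.97% in the second quantifier.

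The 7 genes differed little between the libraries. The log2 ratio of replicate 2 to replicate 1, from counts, was highest for Prkar2b (0.06, counting SE 0.02) and Gnas (0.05, SE 0.01). It was lowest for Prkar1b (-0.16, SE 0.06) and Prkaca (-0.11, SE 0.03), and for Prkacb it was 0.01 (SE 0.03), for Prkar2a -0.02 (SE 0.06) and for Prkar1a 0.0002 (SE 0.02). None of the 7 was past 1.5-fold or past 2-fold, where 6.71% of 16383 genes were past 1.5-fold and 1.68% past 2-fold. Those genes had mean counts of 20 or more. The median size of the log2 ratio was 0.05 over the 7 genes and 0.12 over the 16383. Over the 4687 genes with at least the mean count of the lowest member it was 0.07, and 41 of those were past 1.5-fold, so a count of 0 in 7 is near the background.

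**Figure D5:**
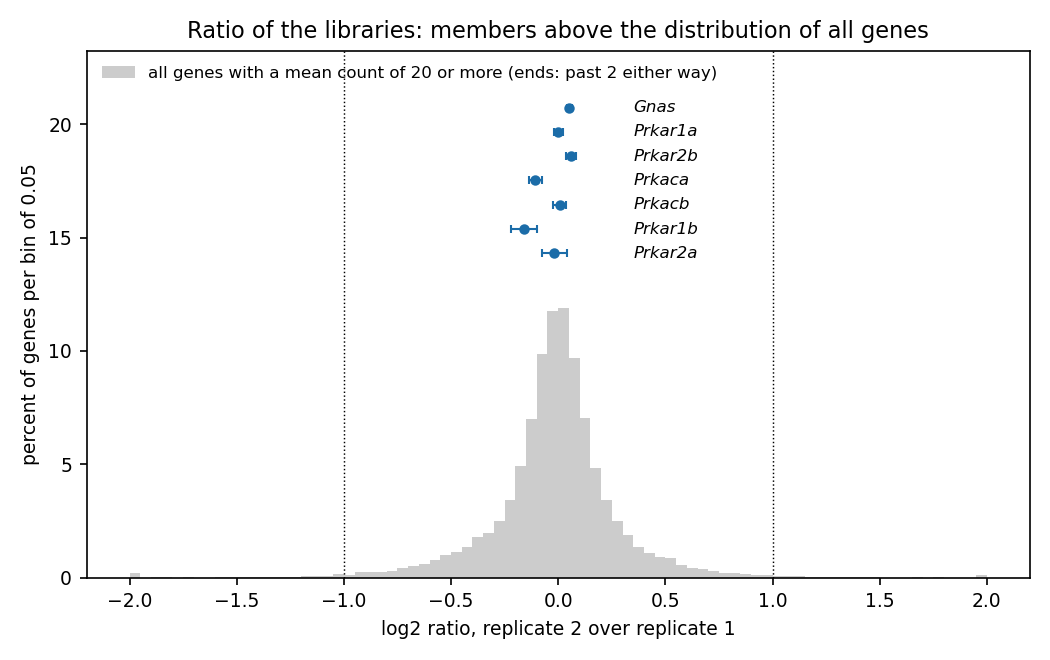
Log2 ratio of replicate 2 to replicate 1 for each gene (points, with counting SE) above the distribution over 16383 genes (grey, percent of genes per bin of 0.05), with dotted lines at 2-fold. All 7 genes lie between -0.16 and 0.06.

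Marker lists of several cell types differed more between the libraries. For comparison, of all 16383 genes with a ratio 7978 were higher and 8405 lower in replicate 2, and 6.71% were past 1.5-fold. All 8 white adipocyte markers were lower in replicate 2, with summed levels of 757 TPM in replicate 1 and 468 in replicate 2. Of these 8, 6 were past 1.5-fold and 1, Lep (log2 ratio -1.48), past 2-fold. All 7 medulla markers were higher in replicate 2, summing to 2008 and 2319 TPM, with a median log2 ratio of 0.17 and none past 1.5-fold. Of 7 macrophage markers, all detected, 5 were lower in replicate 2, with sums of 270 and 192 TPM, and Lyz2 (log2 ratio -0.86) and Cd68 (-0.72) were past 1.5-fold. The 7 cortex markers, all detected, summed to 17210 and 18176 TPM, with 5 higher and 2 lower in replicate 2 and a median log2 ratio of 0.05, the size of that of Gnas. The 7 endothelial markers, all detected, summed to 331 and 341 TPM, and all 5 capsule and fibroblast markers were detected, at 129 and 134 TPM, with Col3a1 (-0.74) past 1.5-fold. The sums were 7.38 and 6.22 TPM for glia, with 2 of 4 detected and S100b (-0.71) past 1.5-fold, and 2.33 and 1.38 TPM for kidney, with 1 of 4 detected. The 2 kidney markers with a ratio were past 1.5-fold, Aqp2 (-0.76, from 64 and 34 counts) and Cubn (-1.04, from 37 and 16 counts). The kidney marker Lrp2 had 24 and 0 counts. In bulk tissue fewer cells of a type and less RNA per cell cannot be told apart. The part of these cell types in the levels of the 7 genes was not tested.

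The genes around PKA were counted in lists. For comparison, 12371 of all 22028 protein-coding genes were detected. Of 19 genes listed as A-kinase anchoring, a family known for tethering regulatory subunits, 15 were detected, summing to 422 and 423 TPM. Binding was not measured, and not every listed protein need tether a regulatory subunit. Akap8l and Akap8, both nuclear, were at 91.3 ± 2.65 and 48.0 ± 0.594 TPM, Akap2 at 49.5 ± 4.84 TPM and Akap13 at 44.1 ± 2.30 TPM. Akap5 was at 0.365 ± 0.0212 TPM, Akap3 had 0 and 2 counts, and Akap4 and Akap14, known from testis and cilia, had 0 counts in both libraries. None of the 16 with a ratio was past 1.5-fold, against 6.71% of all genes, so this is near the background.

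Of the PKA inhibitor peptide genes, Pkig was at 18.6 ± 1.05 TPM, Pkia at 2.60 ± 0.233 TPM and Pkib at 0.635 ± 0.0354 TPM. Prkx, a kinase related to PKA, was at 5.36 ± 0.785 TPM. The 3 inhibitor genes were thus each below both catalytic genes. Among cAMP receptors other than PKA, Rapgef4 (Epac2) was at 59.1 ± 0.198 TPM and Rapgef3 (Epac1) at 13.7 ± 1.21 TPM, while Popdc2, Popdc3 and Bves were below 1 TPM in both libraries.

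Gnas was higher than every other G alpha gene listed. Of the 12 others 10 were detected, summing to 318 and 322 TPM. Gnai2 and Gnai3, which inhibit adenylyl cyclase, were at 99.5 ± 2.21 and 49.3 ± 0.198 TPM, Gna12 at 44.4 ± 0.919 TPM and Gna11, which acts on phospholipase C, at 34.8 ± 1.54 TPM. Gnal, the other stimulatory alpha gene, was at 0.670 ± 0.0141 TPM and Gna15 at 0.685 ± 0.0354 TPM. Gnb2 and Gnb1 led the beta and gamma genes and chaperones at 214 ± 2.74 and 146 ± 0.318 TPM. Gng5 followed at 62.6 ± 6.68 TPM and the alpha subunit chaperone gene Ric8a at 29.1 ± 0.948 TPM. Ric8b, the other chaperone gene listed, was at 13.15 ± 1.41 TPM. Of these 17 genes 15 were detected, and Gng8 and Gng13 were at 0.0950 ± 0.134 and 0.355 ± 0.163 TPM.

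All 11 genes of cAMP-responsive transcription were detected. Ep300 and Crebbp, coactivators of CREB, were at 33.6 ± 1.43 and 24.3 ± 0.523 TPM, and Crtc2, a CREB coactivator that salt-inducible kinases hold in the cytoplasm, at 25.7 ± 3.19 TPM. Crem, whose products include the cAMP-inducible repressor ICER, was at 41.5 and 24.3 TPM in replicates 1 and 2, a log2 ratio of -0.92 (counting SE 0.07). It was the 1 gene past 1.5-fold among the 61 genes of the pathway lists that had a ratio, against 6.71% of all genes. Of the 11 genes of cAMP-responsive transcription, 4 were higher and 7 lower in replicate 2. The white adipocyte markers, with a median log2 ratio of -0.77, were lower in the same library. The macrophage markers had a median of -0.21, with 5 lower and 2 higher in replicate 2. Medians were -0.90 for the 2 kidney markers with a ratio, -0.12 for capsule and fibroblast and -0.02 for endothelial markers. They were 0.05 for cortex, 0.06 for glia and 0.17 for medulla markers. The part of these cell types in the Crem ratio was not tested. With 1 library on each side, this ratio compares 2 libraries and has no test.

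The protein-coding genes nearest in level, by the summed difference of log2(TPM + 0.1) over 2 libraries, were taken as a description. Nearest to Gnas were the ribosomal protein genes Rps27 (difference 0.05) and Rplp1 (0.06), and nearest to Prkar1a were Dbp (0.004) and Ptprs (0.01). Prkaca was nearest to Actn4 (0.004) and Edf1 (0.02), and Prkacb to Pmpca (0.003) and Ip6k2 (0.02). Prkar2b was nearest to Tmed10 (0.02) and Uqcrb (0.02), Prkar1b to Ero1l (0.009) and Tmem126a (0.02), and Prkar2a to Ric1 (0.01) and Gins4 (0.01).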

How the data were processed

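Ribosome-reduced total RNA of 2 adrenal libraries, made from 300 ng of RNA with ERCC spike-ins and a directional kit per the labels, was quantified by the authors. The deposited gene and transcript tables held expected counts, TPM and FPKM. These came from alignments to the transcriptome of mm10 (annotation M21), per the library notes. Per the file headers, the transcript tables also held each transcript's percent of its gene and a TPM interval as a lower and an upper signal, with its level not stated. The second quantifier is a deposited transcript table with estimated counts and TPM, derived from the reads themselves per the library notes. Its transcript values were summed per gene. The aligner and the quantifiers, not given in the sources used here, are not named. The authors' TPM is scaled over every entry of a table.

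Replicates 1 and 2 had 29204618 and 26322446 counts over annotated genes, and the 7 genes held 0.208% and 0.212% of them. Gene counts were whole numbers as deposited (to 2 decimals) for 6 of the 7 genes in both libraries, the exception being Prkar1b. Library ratios used expected counts rounded to whole numbers, edgeR 4.0.16 TMM factors (0.997 and 1.00), a prior count of 0.5 and R 4.3.3. Their SE is Poisson and, as reads are not independent molecules, covers counting error only. DESeq2 1.42.0 size factors were an alternative. The ratio procedure was tested on simulated counts. Tables and figures used Python 3.11.15, pandas 2.3.3, numpy 2.4.6 and matplotlib 3.10.9. No p-values were computed.

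The members and lists were chosen with earlier results of these data known. Genes and transcripts were named by a rule. It takes all members, transcripts at 5% or more of their gene in either quantifier (26 of 59), and the 4 highest of each pathway list. It also takes list genes below 1 TPM in either library or past 1.5-fold at a mean count of 100 or more, and the 2 protein-coding genes nearest each member. Gm20721, Ric8b, Prkaca-202, Prkacb-201, Gnas-211 and Gnas-214 were named outside this rule, after their values were seen. The rule covers no markers, and those named were chosen after their values were seen. Sequences are from the GENCODE M21 transcript file. Proteins were not used here. Alternatives were FPKM, counts, the second quantifier, protein-coding transcripts alone, other scalings, limits and prior counts, and leaving out each library.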

Additional observations from a re-analysis of the deposited data

How the results depend on the processing

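All 7 members stayed at or above the limit at 0.5, 2 and 5 TPM, at 1 FPKM, in the second quantifier and in each library alone, and none was past 2-fold under any of 5 other ways to compute the ratio, or past 1.5-fold. With no limit on mean count the share of all genes past 2-fold was 22.4% of 26750. The regulatory to catalytic ratio of 2.07 was 2.28 in expected counts. Prkaca's percent of the catalytic sum, 60.3%, was 51.0% in expected counts, 55.96% in the second quantifier and 62.3% with protein-coding transcripts alone. Protein-coding transcripts still include the short model Prkacb-208, at 10.55 and 12.06 TPM, and no alternative was limited to full-length transcripts. The type I percent of the regulatory sum, 54.9%, was 56.6% in expected counts. Leaving out a library gave 2.01 to 2.12 for the ratio, 59.4% to 61.2% for Prkaca and 54.1% to 55.7% for type I. The other alternatives for these 5 results moved them by less than 1 SD, or, for the counts of genes, not at all. Among these, FPKM could not move the ratio or the percents, since within a library it differs from TPM by a constant factor. Leaving out a library is not counted in what follows, since with 2 libraries its shift is fixed below 1 SD. Of 21 alternative values of the members' TPM, 12 moved by more than 1 SD. Among these 12, the FPKM values of Gnas, Prkacb and Prkar1a differ from TPM by the unit alone. Of 21 alternative values of the leading transcript's percent 14 moved by more than 1 SD. The largest was Prkar1b-201, at 24.3% in the second quantifier against 90.6%. By the mean of the libraries the leading transcript was the same in both quantifiers for all 7 genes, but in 1 library of the second quantifier another one led 3 of them. These were Gnas-218 in replicate 1, and Prkar1b-203 and Prkar2b-201 in replicate 2. Among 35 alternative log2 ratios, those from other scalings and from a prior count of 2 could barely move. The scalings offset every gene alike, by less than any member's counting interval, and a prior matters little at the members' counts. Of the 35, 1 moved beyond its counting interval, that of Prkar2a, which was 0.16 from TPM against -0.02 from counts. The cause of these shifts was not tested, beyond the division by length that separates TPM from counts and the unit of FPKM.

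No paired analysis was possible because the series has 1 group and no test. With 2 libraries the precision of each SD is low. Counts of 1000 or more behind every member limit counting error at gene level to a small part of the level.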

Other observations

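The deposited TPM interval of each transcript, whose level is not stated, gives another view of the gap between quantifiers. Of the 26 transcripts named by share, 19 had second-quantifier values outside the interval in both libraries, and 2 in 1 library. All 4 Gnas transcripts were among the 19. For Gnas-218, the noncoding transcript from the exon 1A region, the interval ran from 7.40 to 22.7 TPM in replicate 1 and from 0.243 to 11.4 TPM in replicate 2, while the second quantifier gave 209 and 136 TPM. For Gnas-206 it ran from 161 to 188 TPM in replicate 1, while the second quantifier gave 95.6 TPM. For Prkar2b-201, by contrast, the intervals of 38.7 to 45.6 TPM and 40.3 to 47.8 TPM held the second-quantifier values of 44.7 and 46.9 TPM. The intervals were not taken as a full measure of error. For 9 of the 26 transcripts the deposited TPM itself lay outside its own interval in at least 1 library. All of these but Prkar1b-201 did so at a TPM of 0, under a lower bound of at most 5.2e-05 TPM. Prkar1b-201 was at 16.6 TPM in replicate 1, above an upper bound of 16.4 TPM.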
